A study of Homo sapiens with 6 samples.

Results

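The 8 genes described here are inhibitors of the cyclin-dependent kinases (CDKs) and a metabolic neighbour of theirs on the short arm of chromosome 9. They are CDKN1B, CDKN1C, CDKN2A, CDKN2B, CDKN2C, CDKN2D, CDKN3 and MTAP, chosen by name as 8 of the 58735 genes in the deposited table, with the counts of all transcripts of a gene added up. The study used cells labelled CCRF-SB, a lymphoblast-like line of B cell acute lymphoblastic leukaemia taken from peripheral blood. siControl stands for 3 libraries of cells with an empty vector (genotype label WT), and siANXA1 for 3 libraries of cells whose lentiviral vector silences ANXA1 (genotype label ANXA1 down-regulated). All were grown in RPMI-1640 with 10% serum and labelled as day 5, and the protocol names selection with puromycin for the silenced cells. The title of the series is about growth of the cells and their resistance to drugs, and these genes bear on growth.

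CDKs drive a cell from one phase of its cycle to the next once a cyclin is bound. The INK4 proteins (p16 from CDKN2A, p15 from CDKN2B, p18 from CDKN2C and p19 from CDKN2D) bind CDK4 and CDK6 and keep D-type cyclins off them. The CIP/KIP proteins p27 (CDKN1B) and p57 (CDKN1C) bind complexes of cyclins with CDKs and act mainly on CDK2. CDKN3 is a phosphatase that removes the activating phosphate of CDK2, and MTAP is the enzyme that returns methylthioadenosine, a by-product of polyamine synthesis, to methionine. CDKN2A, CDKN2B and MTAP lie side by side in band 9p21, which is often deleted in acute lymphoblastic leukaemia.

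5 of the 8 genes were expressed at more than traces, and the 3 genes of 9p21 were at or near 0 in all 6 libraries. The level of a gene is given in CPM, its estimated counts for every 1000000 counts assigned to a gene. In bulk RNA, fewer cells that express a gene and less of its RNA per cell cannot be told apart. No member passed the test of siANXA1 against siControl, which was edgeR's quasi-likelihood test with a threshold of 0.05 on the adjusted p. Of the 6 members with enough counts to be tested, 5 had a negative and 1 a positive log2 fold change. CDKN2C, CDKN2D and CDKN1C were the members with the largest differences, all towards lower means in siANXA1. The expressed members varied more clearly between libraries within a group: in CPM, siControl 1, siControl 2 and siANXA1 2 were high for all 5 of them. For CDKN2C the gap was narrow and did not hold under another scaling of the libraries.

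The libraries held between 21333951 counts with a gene (siANXA1 2) and 44148505 (siANXA1 1). ANXA1 itself, the gene silenced, averaged 3709 ± 87.6 CPM over the siControl libraries and 1681 ± 93.9 CPM over the siANXA1 libraries (SD, n = 3 each), with no overlap and an edgeR adjusted p of 0.0571. Of 15 marker genes of B cells, 12 averaged under 1 CPM and 3 (DNTT, IGLL1 and VPREB1) had no count in any library. MS4A1, another of them, had counts in 1 library. The 14 erythroid markers summed to between 2099 and 3612 CPM in siControl and between 5986 and 7063 CPM in siANXA1, with none at 0. edgeR called 0 of the 14 at an adjusted p under 0.05. In CPM 5 of them were higher in siANXA1 without overlap, as were 8.05% of all genes tested. The part of these B cell and erythroid markers in the results below was not tested. The labels do not tell if the replicates came from separate cultures; the p-values therefore describe the spread of these 6 libraries, and that spread may be technical.

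The 3 stretches that follow are genomic DNA just before the most upstream annotated exon of CDKN2C, CDKN2D and CDKN3, the expressed members for which RefSeq's promoter table (GRCh38.p14) reaches at least 80 bases past every annotated exon. They are shown because the counts below divide by transcript start (CDKN2C, CDKN2D) and because these genes were high and low in the same libraries. Each reads 5′ to 3′ on the strand of the gene. Capitals mark every match, on either strand, to an E2F site (TTTCGCGC, TTTGGCGC, TTTCCCGC or TTTGCCGC), a CCAAT box (CCAAT), a GC box (GGGCGG), an E-box (CACGTG), the core of the cyclic AMP response element (TGACGT) or a cell cycle homology element (TTTGAA).
CDKN2C, chr1:50960495-50960744, plus strand: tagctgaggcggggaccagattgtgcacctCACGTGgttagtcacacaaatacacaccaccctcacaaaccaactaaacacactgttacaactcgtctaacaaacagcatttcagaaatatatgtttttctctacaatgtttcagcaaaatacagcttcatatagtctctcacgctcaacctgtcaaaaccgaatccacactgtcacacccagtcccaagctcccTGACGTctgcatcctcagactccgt
CDKN2D, chr19:10569060-10569229, minus strand: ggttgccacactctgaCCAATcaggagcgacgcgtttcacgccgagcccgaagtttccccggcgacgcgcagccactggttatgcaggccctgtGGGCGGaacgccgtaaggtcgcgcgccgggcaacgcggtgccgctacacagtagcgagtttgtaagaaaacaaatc
CDKN3, chr14:54396757-54396848, plus strand: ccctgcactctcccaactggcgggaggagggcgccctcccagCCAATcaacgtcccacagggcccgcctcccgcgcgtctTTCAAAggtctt

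The CDKN2C stretch is the 250 bases before the start of transcript ENST00000262662 and holds 45.6% G and C. It contains 1 E-box, which 6.35% of all 35116 promoters in the table contain in their first 250 bases, and 1 core TGACGT, found in 7.10%. The 170 bases of CDKN2D (62.4% G and C) contain a CCAAT box and a GC box, found in 22.1% and 29.5% of promoter stretches of that length. The 92 bases of CDKN3 (67.4% G and C) contain a CCAAT box (11.4% of promoters) and the element TTTGAA on the opposite strand (6.09%). None of the 3 stretches contains the E2F letters searched, which 2.79% of 250-base, 1.85% of 170-base and 0.869% of 92-base promoter stretches do. A match is a description of the letters and not evidence of binding, and no motif of these matches overlaps another.

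CDKN2C encodes p18, an INK4 inhibitor of CDK4 and CDK6, and was the most abundant member by counts. Its coordinates in GRCh38 are 50960745 to 50974633 of chromosome 1, plus strand. It stood at 142, 133 and 109 CPM in siControl 1 to 3 and at 92.5, 111 and 92.6 CPM in siANXA1 1 to 3. The siANXA1 libraries were lower but for siANXA1 2, which stood just above siControl 3. With TMM scaling, which corrects CPM for differences in composition between libraries, these same 2 libraries stood at 108 and 114 CPM and the groups did not overlap. The means were 128 ± 17.1 and 98.8 ± 10.8 CPM (SD, n = 3), and the log2 fold change was -0.37 ± 0.15 (SE), or 77.1% of the siControl level, with an edgeR adjusted p of 0.627. CDKN2C was the only member with an unadjusted p under 0.05 in edgeR (0.0448), as were 7.93% of the 17947 genes tested in either direction and 4.52% in the direction of CDKN2C.

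Most of the CDKN2C counts fell on the long transcript ENST00000262662, which starts at the DNA stretch printed above. It stood at 99.97, 90.5 and 86.3 CPM in siControl 1 to 3 and at 64.2, 72.1 and 59.1 CPM in siANXA1 1 to 3. Every siANXA1 library was below every siControl library. Transcript ENST00000371761, which starts at 50969944, held 27.6, 29.3 and 19.9 CPM and 15.5, 25.7 and 13.8 CPM, and its groups overlapped. The transcript between them, ENST00000396148, held 10.1 ± 6.34 CPM in siControl and 15.3 ± 3.82 CPM in siANXA1. The 3 transcripts overlap, so the division of reads between them is an estimate.

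CDKN2D encodes p19, another INK4 inhibitor, and was far less abundant than CDKN2C by counts. Its coordinates are 10566462 to 10569059 of chromosome 19, minus strand. It stood at 11.7, 10.6 and 6.16 CPM in siControl 1 to 3 and at 5.35, 8.11 and 3.56 CPM in siANXA1 1 to 3. siANXA1 2 lay inside the siControl range and the other siANXA1 libraries below it. In edgeR the log2 fold change was -0.74 with an SE of 0.38 (adjusted p = 0.649). Its transcript ENST00000393599 stood at 5.29, 5.41 and 6.16 CPM in siControl and at 1.77, 3.66 and 3.56 CPM in siANXA1, without overlap. Transcript ENST00000335766, which begins further upstream, was at 0 in siControl 3 and siANXA1 3 and between 3.58 and 6.36 CPM in the other libraries. ENST00000393599 thus held 45.4%, 51.2% and 100% of the counts in siControl 1 to 3 and 33.1%, 45.1% and 100% in siANXA1 1 to 3. The division of reads between these overlapping transcripts is an estimate, and the groups overlapped in the summed counts of CDKN2D. Of the 13 member transcripts that averaged 1 CPM or more, ENST00000262662 of CDKN2C and ENST00000393599 of CDKN2D were the 2 whose groups did not overlap. Both were lower in siANXA1, as were 5.24% of all 37858 transcripts at that level, while 7.52% were higher without overlap.

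CDKN1B encodes p27, which holds cells in G1, and is found at 12715058 to 12722371 of chromosome 12, plus strand. It stood at 42.7, 72.5 and 27.8 CPM in siControl 1 to 3 and at 27.996, 59.7 and 39.5 CPM in siANXA1 1 to 3. The lowest library of each group stood at nearly the same level, and siControl 2 was the highest of all 6 libraries. In edgeR the log2 fold change was -0.17 with an SE of 0.41 (adjusted p = 0.907), and it was positive without siControl 2 (0.24) or siANXA1 1 (0.05). Nearly all counts fell on transcript ENST00000228872, which held at least 99.6% in every library.

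CDKN1C encodes p57, an imprinted gene expressed mainly from the maternal copy, and is found at 2883213 to 2885773 of chromosome 11, minus strand. It was low, at 4.27, 4.86 and 1.78 CPM in siControl 1 to 3 and at 1.29, 3.70 and 1.62 CPM in siANXA1 1 to 3. These levels rest on between 57 and 193 counts a library. siControl 3 stood with siANXA1 1 and 3, and siANXA1 2 stood near siControl 1. In edgeR the log2 fold change was -0.74 with an SE of 0.54 (adjusted p = 0.73), and without siANXA1 2 it was -1.29 (edgeR adjusted p = 0.438). Transcript ENST00000440480 held between 40% and 93% of the counts.

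CDKN3 encodes the CDK2 phosphatase, whose RNA is most abundant in dividing cells, and is found at 54396849 to 54420218 of chromosome 14, plus strand. It stood at 56.7, 61.4 and 47.2 CPM in siControl 1 to 3 and at 40.8, 61.3 and 42.4 CPM in siANXA1 1 to 3. siANXA1 2 stood as high as the highest siControl library. In edgeR the log2 fold change was -0.20 with an SE of 0.20 (adjusted p = 0.795). The gene has 12 transcripts in the table, 11 of them with a count, and their shares moved widely between replicates. ENST00000556102, for instance, held 48.8%, 0% and 29.3% of the counts in siControl 1 to 3, and ENST00000335183 held 9.58%, 42.1% and 19.5%. Within siControl the division of CDKN3 between its overlapping transcripts was thus less stable than its sum.

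**Figure D1:**
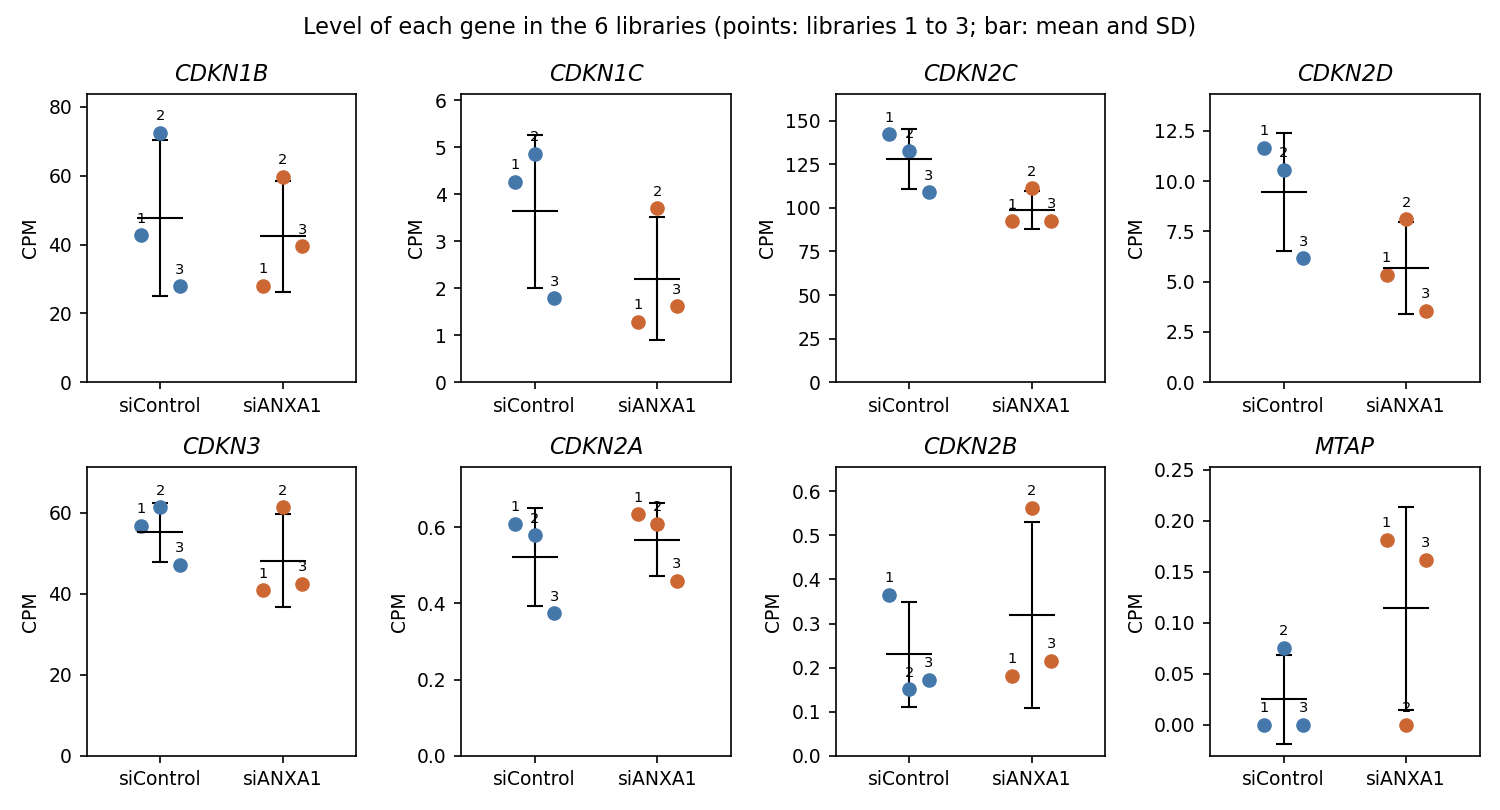
Level in CPM (vertical axes, from 0 for all but MTAP) of each of the 8 genes in siControl (blue) and siANXA1 (orange) libraries 1 to 3, with the group mean and SD as bars. In CDKN1B, CDKN1C, CDKN2C, CDKN2D and CDKN3 the libraries siControl 3, siANXA1 1 and siANXA1 3 lie below the other 3, and CDKN2A, CDKN2B and MTAP stay under 1 CPM in every library.

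**Figure D2:**
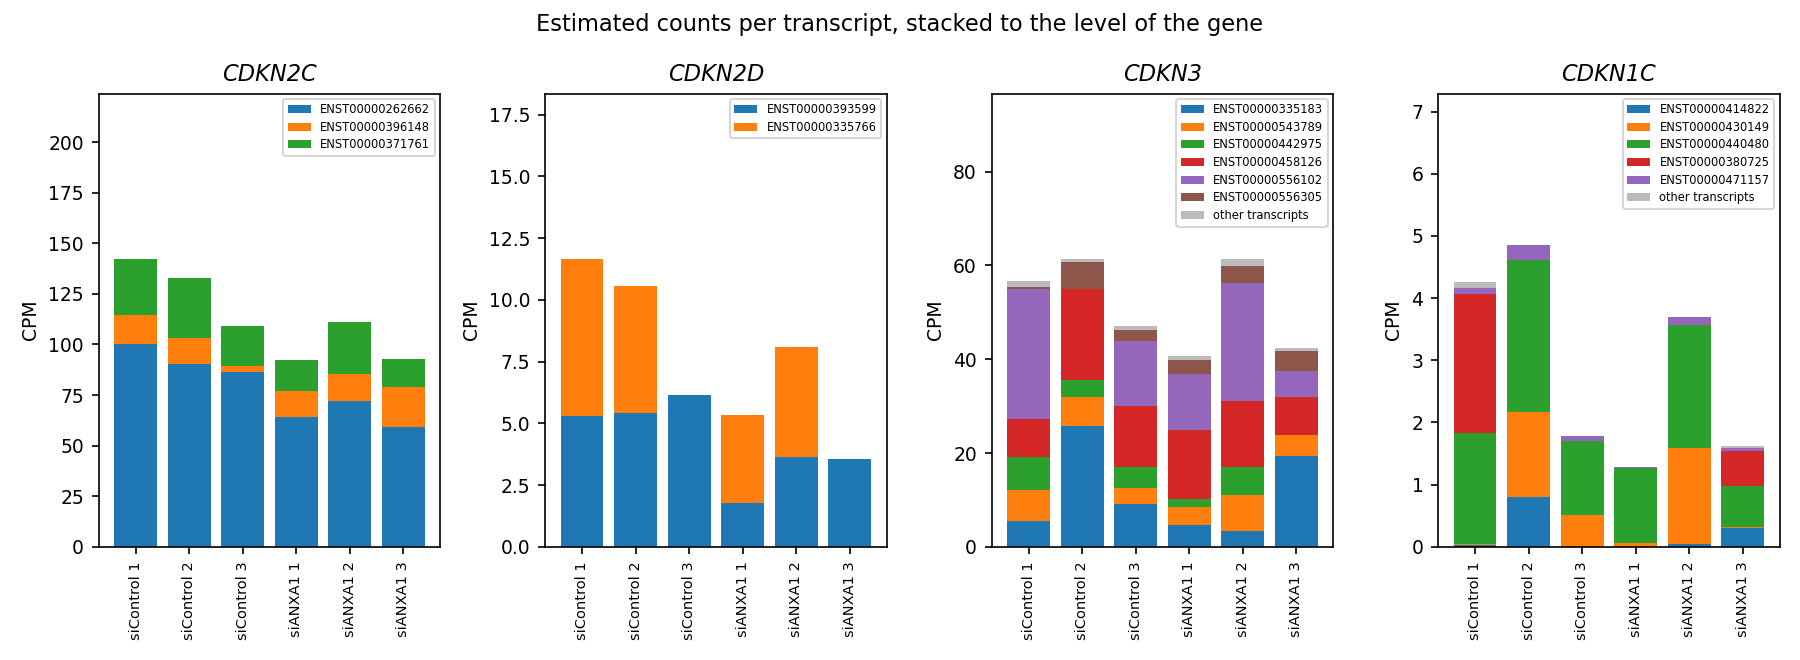
Estimated counts of each transcript in CPM, stacked to the level of the gene, for CDKN2C, CDKN2D, CDKN3 and CDKN1C in the 6 libraries, where colours mark transcripts that held 5% or more in some library. The long transcript of CDKN2C (blue) forms most of each bar and is lower in every siANXA1 library, whereas the shares within CDKN3 and CDKN1C change from library to library.

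CDKN2A, which encodes p16 and, from another first exon and reading frame, the protein ARF, is found at 21967753 to 21995301 of chromosome 9, minus strand. It had 25, 23 and 13 counts in siControl 1 to 3 and 28, 13 and 17 counts in siANXA1 1 to 3, or between 0.374 and 0.634 CPM. Its groups overlapped, with an edgeR log2 fold change of 0.12 and an SE of 0.38 (adjusted p = 0.931). The counts lay on 3 of its 14 transcripts. ENST00000579755, the transcript that starts at the first exon of ARF, had 14, 9 and 6 counts and 12, 7 and 6 counts. The coding transcript ENST00000498124, which starts downstream of it at 21974866, had 0, 14 and 7 counts and 16, 6 and 11 counts. ENST00000380151, a transcript annotated for nonsense-mediated decay that starts at 21974827, had 11 counts in siControl 1 only. ENST00000304494, the main p16 transcript, starts at 21975098 and had no count, and the division of so few reads between these overlapping transcripts is an estimate. For a transcript without counts, 3 counts mark the upper limit, which is between 0.0680 and 0.141 CPM in these libraries (counting error only).

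CDKN2B, which encodes p15, lies next to it from 22002903 to 22009363 on the minus strand. It had 15, 6 and 6 counts in siControl 1 to 3 and 8, 12 and 8 counts in siANXA1 1 to 3, too few to be tested. Most of them were assigned to a transcript with a retained intron, ENST00000579591, and its coding transcript ENST00000276925 had 3, 0 and 0 counts and 4, 6 and 0 counts. The antisense RNA of the locus, CDKN2B-AS1, had no count in any library.

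MTAP, on the plus strand from 21802543 to 21937651, had 0, 3 and 0 counts in siControl 1 to 3 and 8, 0 and 6 counts in siANXA1 1 to 3. It was not tested, and no fold is given between levels at or near the limit of 3 counts. 12 of its 14 transcripts had no count. The RNA of this enzyme, which most tissues express, was therefore not detectable in 3 libraries and at most 0.181 CPM in the others.

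The genes around them were also low. SLC24A2, an ion exchanger gene that ends at 19786928 on chromosome 9, was the nearest expressed gene on one side, at a mean of 6.87 CPM over the 6 libraries, where expressed means 1 CPM or more. On the other side it was CLIC4P1, a processed pseudogene at 22747700 with 1.09 CPM, whose reads can be shared with its parent gene, and then the coding gene CAAP1 at 26840685 with 19.5 CPM. In the 7.05 Mb between SLC24A2 and CAAP1 lay 28 protein coding genes, of which 15 had no count in any library. The highest of the 28 was CDKN2A itself, at a mean of 0.544 CPM. FOCAD and MLLT3, at the side of SLC24A2, followed CDKN2A with 0.528 and 0.347 CPM. HACD4, a fatty acid dehydratase gene, and KLHL9, a ubiquitin ligase adaptor gene, had 3 and 4 counts summed over all libraries. The 16 interferon genes of the cluster had 10 counts in all, and such genes are silent in most cells unless a virus induces them. The remaining coding genes beside CDKN2B and MTAP were AL359922.1, DMRTA1, ELAVL2, IZUMO3 and TUSC1, with 3 counts in TUSC1 and none in the others. Of the 72 genes of every type between SLC24A2 and CLIC4P1, 53 had no count.

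The stretch was compared with other runs of consecutive protein coding genes under 1 CPM on the autosomes and X, a comparison chosen after these values were seen. 41.6% of 19864 protein coding genes averaged under 1 CPM, and they formed 3669 runs. The run from MLLT3 to TUSC1 had 28 genes, as many as or more than all but 9 others, and spanned 5.34 Mb. The runs with more genes included clusters of olfactory receptor (9.02 Mb), keratin (0.645 Mb) and protocadherin genes (0.463 Mb), families that are silent in most tissues. By span, 10 runs were as long or longer, with the run from MLLT3 to TUSC1 counted among them. The files hold RNA counts and no measure of DNA copy number, so whether the segment is deleted in these cells was not tested.

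**Figure D3:**
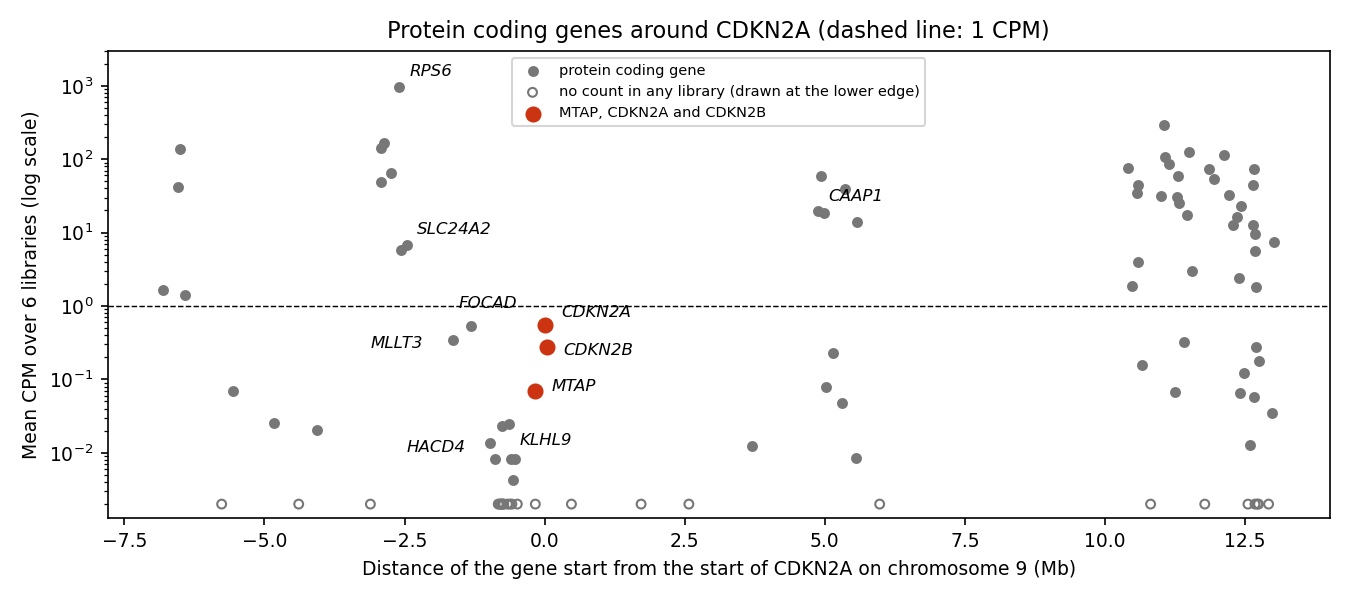
Mean level over the 6 libraries in CPM (log axis) of each protein coding gene that starts between 15 and 35 Mb on chromosome 9, against its distance in Mb from the start of CDKN2A; open circles on the lower edge have no count. No protein coding gene between SLC24A2 and CAAP1 reaches the dashed line at 1 CPM, whereas RPS6 (976 CPM) and others on both sides do.

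To compare the members with one another, counts were divided by transcript length and scaled to the same total in each library (TPM). CDKN3 was the highest at 111 ± 19.6 TPM (SD over the 6 libraries), followed by CDKN2C at 90.9 ± 16.2 TPM, and their ranges overlapped. CDKN1B followed at 30.2 ± 11.8 TPM, CDKN2D at 10.7 ± 4.62 TPM and CDKN1C at 3.20 ± 1.72 TPM. CDKN2C and CDKN1B did not overlap in range, nor did CDKN1B and CDKN2D, whereas CDKN2D and CDKN1C did. CDKN2A (0.948 ± 0.16 TPM), CDKN2B (0.367 ± 0.157 TPM) and MTAP (0.0197 ± 0.0239 TPM) came last, each apart from the one before. Among INK4 genes CDKN2C thus exceeded CDKN2D in every library, on the TPM scale. Their targets CDK4 and CDK6, named here as those targets and outside the naming rule, averaged 247 and 34.7 TPM.

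The median log2 fold change of the 6 tested members was -0.29, beside 0.01 over all 17947 genes tested. A negative value, found in 5 of the 6, was found in 49.5% of all genes. In CPM these 5 are also the members that were high in siControl 1, siControl 2 and siANXA1 2, a division described below. Its high side holds 2 siControl libraries and 1 siANXA1 library, so the share over all genes is not a like background for them. Within the sides of that division CDKN1B was positive on both and CDKN3 on 1. The part of the division in these signs was not tested. 0 of the 6 members passed edgeR's quasi-likelihood test, with adjusted p from 0.627 to 0.931, whereas 2 genes of all those tested did, or 0.0111%. DESeq2 and limma-voom also called 0 members, though DESeq2 called 258 of the 15449 genes to which it gave an adjusted p (1.67%) and limma-voom called 0.0167% of genes. In CPM no member had groups without overlap, and lower levels without overlap were found in 6.43% of genes and higher ones in 8.05%. With TMM scaling 1 member, CDKN2C, had them, and 7.24% of genes. In simulated data with the spread estimated for each gene, edgeR found none (0 of 67) of the genes made to change 2-fold among 17392. It found 30 of the 67 genes with a 4-fold change and 53 of the 66 with an 8-fold one, with 6 false calls. Genes were drawn independently of one another, so variation that genes share between libraries was left out. The changed genes were picked at random, so these counts do not give the limit for a given member.

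**Figure D4:**
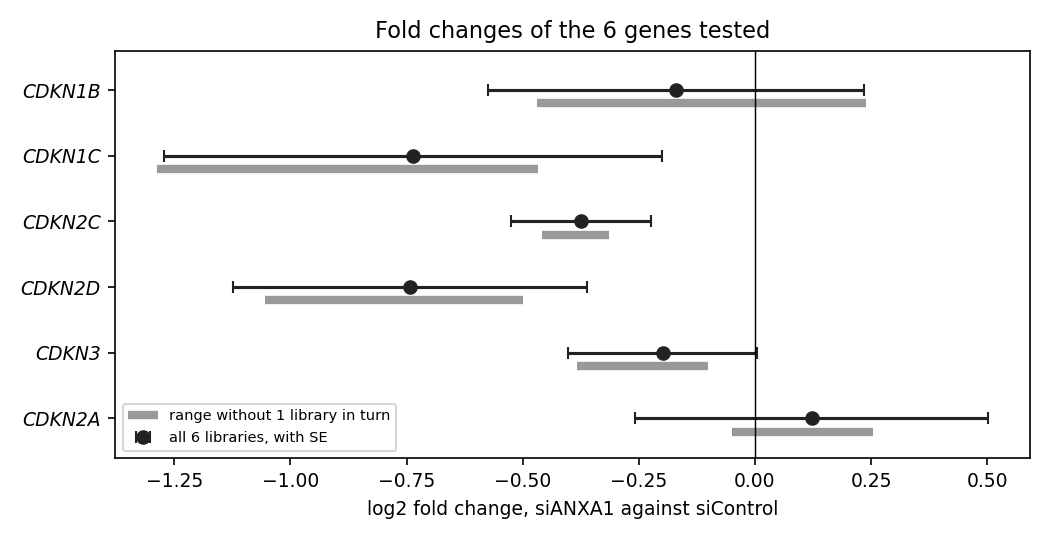
Log2 fold change of siANXA1 against siControl for the 6 tested genes, with all 6 libraries (points, with SE from edgeR) and as a range over fits that leave out 1 library each (grey bars). CDKN2C, CDKN2D, CDKN1C and CDKN3 stay below 0 in every such fit, whereas the ranges of CDKN1B and CDKN2A cross 0.

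In CPM, each of the 5 expressed inhibitors was higher in siControl 1, siControl 2 and siANXA1 2 than in the other 3 libraries. For CDKN1C the lowest of these 3 stood at 3.70 CPM and the highest of the others at 1.78 CPM. For CDKN3 the same pair was 56.7 and 47.2 CPM, and for CDKN2D 8.11 and 6.16 CPM. CDKN1B (42.7 and 39.5 CPM) and CDKN2C (111 and 109 CPM) were divided by a narrow gap. With TMM scaling CDKN2C lost this division, as siANXA1 2 stood at 108 CPM and siControl 3 at 114 CPM. In CPM the same division, in this direction, was found in 22.4% of the genes tested. It is also the division of the libraries on the first principal component of all tested genes, which carried 39.9% of the variance and was computed with these members included. DDIT4, a stress-induced inhibitor of mTOR named after its values were seen, stood at 2324, 2205 and 1473 CPM in the same 3 libraries and between 107 and 182 CPM in the others. The part of this state in the levels of the inhibitors was not tested.

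Within the side of siControl 1 and 2 and siANXA1 2, log2 CPM of CDKN2C differed by -0.32 between siANXA1 and siControl, and within the other side by -0.28. CDKN2D differed by -0.46 and -0.53, and CDKN1C by -0.31 and -0.33. These 3 genes were thus lower in siANXA1 on both sides, where each side has 1 library in one of its arms and no test. They are the members with the largest differences over the same libraries, so the agreement of the sides is not separate support. The share of all genes lower on both sides was not computed. CDKN1B differed by 0.09 and 0.22, opposite in sign to its value over all libraries, and CDKN3 by 0.04 and -0.22. CDKN2A, with few counts, differed by 0.02 and 0.44. With the side as a covariate in edgeR, the log2 fold change of CDKN2C was -0.30 ± 0.07 (SE; adjusted p = 0.265) and that of CDKN1C -0.32 ± 0.21 (SE; adjusted p = 0.533). That of CDKN2D was -0.49 ± 0.22 (SE; adjusted p = 0.403). All 3 were nearer to 0 than without the covariate, where CDKN2C had -0.37, CDKN1C -0.74 and CDKN2D -0.74. CDKN1B changed sign, from -0.17 without the covariate to 0.14 with it.

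The genes most like each member over the 6 libraries were named by the correlation of log2 CPM among 10681 genes with a mean of 5 CPM or more. The points are only 6 libraries, which share the division just described, so the values are a description. CDKN2C was most like SLC25A5, MSN and HSF4 (Pearson's r from 0.993 to 0.994) and CDKN2D most like ARHGAP25, PARVB and YARS (0.993 to 0.997). CDKN1B was most like HEMK1, CCNL1 and LACTB2 (0.982 to 0.997), and CDKN3 most like THEMIS2, MKS1 and SGTB (0.992 to 0.995). No gene appeared in 2 of these lists.

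Other genes of the pathway were taken from 7 lists, with 128 genes of which 120 were tested. edgeR called 0 of the 120 (smallest adjusted p = 0.574), against 6 higher and 4 lower at an unadjusted p under 0.05, a share near the 7.93% of all genes tested. In CPM 13 of the 120 were higher in siANXA1 without overlap and 4 lower, where 8.05% and 6.43% of all genes tested were. DESeq2 called 4 of the 117 it tested, where it called 1.67% of all genes, namely PCGF2 (log2 fold change -1.54, adjusted p = 0.00269), PHC2 (1.78, 0.00368), HMMR (-0.51, 0.0398) and NAP1L4 (1.51, 0.0493). limma-voom called 0.

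Among the cyclins and CDKs that the inhibitors act on, with their activators and inhibiting kinases, 12 of 19 tested genes were positive, with a median of 0.12. CCNA2, the S phase cyclin, stood at 392 ± 46.4 and 395 ± 11.4 CPM in siControl and siANXA1 (SD, n = 3), and CCNB1, the mitotic cyclin, at 226 ± 75.4 and 255 ± 32.4 CPM. CDK4, the kinase bound by the INK4 proteins, stood at 181 ± 32.3 and 204 ± 19.3 CPM, and CDK6 at 174 ± 28.0 and 199 ± 16.7 CPM. Of the D-type cyclins, CCND2 stood at 154 ± 35.7 and 110 ± 35.4 CPM and CCND3 at 125 ± 26.7 and 137 ± 25.7 CPM. CCND1 was low, at 3.41 ± 0.891 and 1.68 ± 1.10 CPM. The genes after CCNB1 were named for their roles: CDK4 and CDK6 as targets of the INK4 proteins, and the D-type cyclins as the cyclins kept off these kinases. The groups of each gene named so far in this list overlapped. 2 other genes of the list, WEE1 and CCNH, named after their values were seen, were higher in siANXA1 without overlap. WEE1 read 45.2, 28.9 and 46.0 CPM in siControl and 93.3, 61.2 and 60.5 CPM in siANXA1 (edgeR adjusted p = 0.615). CCNH read 60.4, 71.3 and 69.4 CPM and 80.2, 101 and 82.1 CPM (edgeR adjusted p = 0.627). Higher levels without overlap were found in 8.05% of all genes tested.

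Of the RB and E2F genes, which act downstream of the kinases, 13 of 18 were positive with a median of 0.14. RBBP4, a histone-binding partner of RB, stood at 327 ± 76.6 and 322 ± 34.9 CPM, and TFDP2, the dimer partner of E2F proteins, at 112 ± 10.7 and 145 ± 14.5 CPM. TFDP2 read 117, 119 and 99.3 CPM against 158, 129 and 149 CPM, without overlap (edgeR adjusted p = 0.627). Of genes that set the amount of p27, 14 of 18 were positive with a median of 0.10. DDB1, an adaptor of cullin ubiquitin ligases, stood at 494 ± 127 and 632 ± 69.1 CPM and RHOA at 484 ± 28.2 and 513 ± 34.6 CPM.

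Of the Polycomb genes, known for silencing the INK4 locus, 7 of 16 were positive and 9 negative, with a median of -0.04. EZH2, the histone methyltransferase, stood at 334 ± 53.4 and 286 ± 22.2 CPM, and BMI1 at 207 ± 20.3 and 196 ± 25.3 CPM. Their related subunits PHC2 and PCGF2, named for their DESeq2 calls, went in opposite directions. PHC2 read 42.4, 20.2 and 15.1 CPM in siControl and 90.01, 88.6 and 87.1 CPM in siANXA1, and PCGF2 read 4.75, 7.28 and 8.08 CPM and 2.56, 1.87 and 2.48 CPM. The groups did not overlap for either gene, and edgeR gave both an adjusted p of 0.574.

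Of the genes of methionine salvage, polyamine synthesis and PRMT5, the enzyme whose activity methylthioadenosine inhibits, 13 of 19 were positive with a median of 0.18. ODC1, the first enzyme of polyamine synthesis, read 551, 551 and 1132 CPM in siControl and 1180, 573 and 1198 CPM in siANXA1. Its low libraries were those in which the inhibitors were high. OAZ1, the antizyme that sends ODC1 to the proteasome, stood at 486 ± 68.8 and 456 ± 19.6 CPM. Of the mitotic genes, whose RNA usually keeps company with CDKN3, 11 of 20 were positive with a median of 0.01, and TOP2A, which untangles DNA, stood at 965 ± 51.4 and 893 ± 58.9 CPM. TPX2, a spindle protein gene, read 450, 455 and 466 CPM in siControl against 371, 402 and 376 CPM in siANXA1, without overlap (edgeR adjusted p = 0.627). 4 of the 20 mitotic genes shared the division of CDKN3, and 5 had the opposite one, shares near those of all genes tested (22.4% and 17.4%). Of the neighbours of CDKN1C in the imprinted segment of 11p15, 5 of 10 were positive, with a median near 0. CARS, a cysteinyl-tRNA synthetase gene, read 182, 178 and 78.0 CPM in siControl and 71.5, 155 and 69.1 CPM in siANXA1, with the same high libraries as CDKN1C, and CD81 stood at 78.6 ± 17.8 and 76.2 ± 7.32 CPM.

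**Figure D5:**
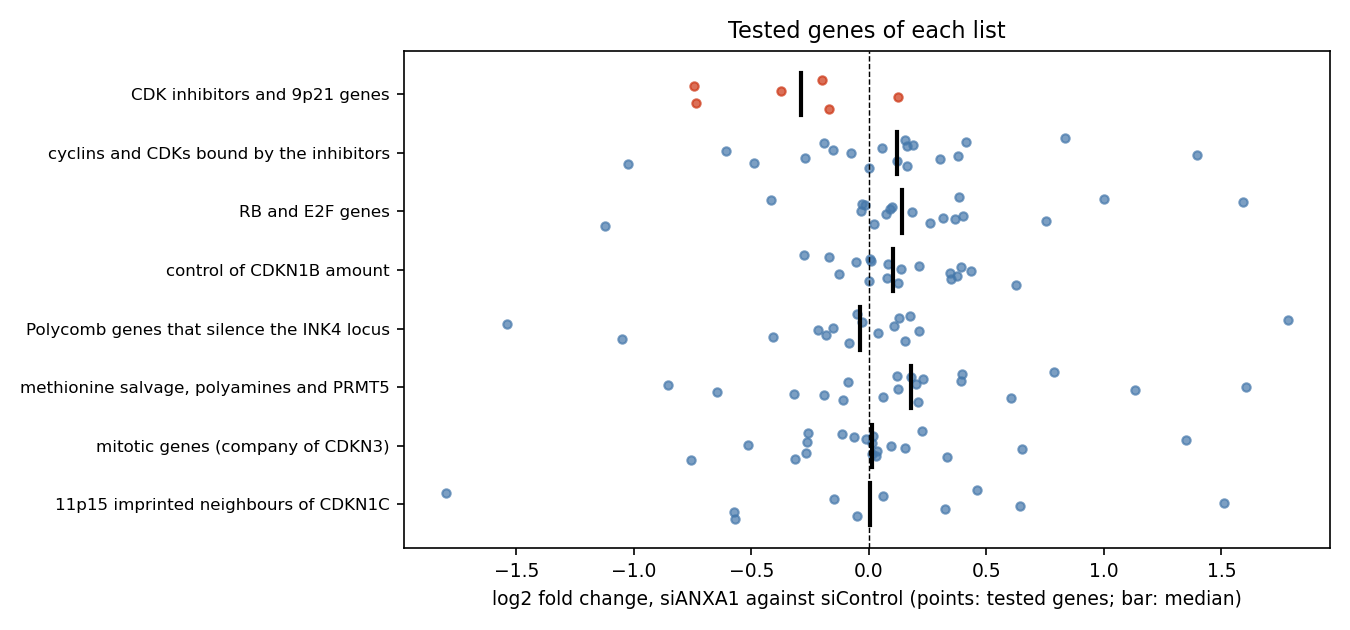
Log2 fold change of siANXA1 against siControl (horizontal axis) for each tested gene of the CDK inhibitors and 9p21 genes (red) and of the 7 pathway lists (blue), with the median of each list as a black bar. The 6 tested inhibitors have a median of -0.29, and the medians of the other lists lie between -0.04 and 0.18.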

How the data were processed

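For each transcript the authors deposited an estimated count without normalization, in an annotated and a plain table with equal values; that the counts are estimates was read from the values. How reads were aligned and counted, and whether by strand, is not stated in the labels used here. Per the submitters' processing notes the build was mm10 (mouse), while the rows carry human transcripts with GRCh38 positions. Rows without a gene (16.9% to 17.7% of counts) stayed out of totals and tests. Counts were summed per gene, rounded, and compared by the quasi-likelihood test of edgeR 4.0.16 (R 4.3.3; genes kept by filterByExpr, TMM scaling, robust glmQLFit; group as the only term; Benjamini-Hochberg over all genes tested, two-sided), after a check on simulated data. Alternatives used DESeq2 1.42.0, limma-voom 3.58.1, other scalings and filters, a replicate block, a principal component side and each library left out. Members and gene lists were chosen with earlier results of these data known. Genes named are the members, ANXA1, the 2 genes of each list with the highest CPM, the neighbours on chromosome 9 and the 3 most correlated genes. Others are said to be named after their values were seen or by role.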

Additional observations from a re-analysis of the deposited data

How the results depend on the processing

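The number of members called was 0 under all 16 alternatives. CDKN2C, CDKN2D and CDKN1C kept a negative log2 fold change under every alternative that could test them (CDKN1C and CDKN2A failed the strict filter, which asks for 10 counts in each of 3 libraries and for 5 CPM on average). CDKN1B changed sign without siControl 2 (0.24), without siANXA1 1 (0.05) and with the principal component side as covariate (0.14), CDKN3 with the most abundant transcript per gene (0.028), and CDKN2A without siControl 3 (-0.049). The cause was not tested. Leaving out 1 library at a time gave log2 fold changes from -0.46 to -0.31 for CDKN2C, from -1.06 to -0.50 for CDKN2D, from -1.29 to -0.47 for CDKN1C, from -0.38 to -0.10 for CDKN3, from -0.47 to 0.24 for CDKN1B and from -0.05 to 0.25 for CDKN2A. Over all genes, 2 were called by edgeR, 258 by DESeq2, 1 with the most abundant transcript per gene, 0 with the replicate block, 5 with the side as covariate, and between 0 and 7 without 1 library (0 without siControl 2 or any 1 siANXA1 library, 7 without siControl 3). Of the pathway genes DESeq2 called 4, and 0 were called under the other alternatives. The labels do not tell if the replicate numbers pair the libraries. Deviations of same-numbered libraries had correlations of -0.114, 0.263 and 0.256, and those of differently numbered ones lay between -0.355 and 0.226. These values cannot decide the pairing, because the libraries also share the division on the first principal component. With the replicate block CDKN2C had a log2 fold change of -0.37 (edgeR adjusted p = 0.589). The order of the 8 levels per length was the same with 1 mean length per gene. Depth limits CDKN2A, CDKN2B and MTAP, with at most 28 counts in a library.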
